A study of Mus musculus with 38 samples.

Results

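The Krüppel-like factor (KLF) genes Klf3, Klf4, Klf5, Klf6, Klf7, Klf9, Klf10 and Klf13 were followed through SOX9-driven reprogramming of mouse epidermal stem cells (EpdSCs) by the histone marks around them. For each of these 8 members, of 21938 protein-coding genes, a window was set as the gene body with 50 kb on either side (GRCm38, also called mm10). Every deposited interval that overlapped a window by at least 1 bp was taken, from 5 lists of H3K4me1 domains and 5 lists of H3K27ac peaks of skin and from 4 lists of H3K4me1 domains of cultured cells. The 8 windows together spanned 1042 kb. They held 54, 57, 57, 65 and 71 H3K27ac peaks and 87, 72, 67, 74 and 77 H3K4me1 domains in the skin lists of D0, W1, W2, W6 and W12. Members were chosen by name from a larger family, with earlier results of these data known. Their values therefore cannot be taken as independent of that choice.

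The skin samples were EpdSCs sorted from the back skin of male mice of genotype K14rtTA; TRE-myc-Sox9, in which doxycycline (DOX) switches on MYC-tagged SOX9 in cells where the Krt14 promoter drives rtTA. The sort kept CD49f-high, CD34-negative, Ly6A-high cells and removed cells with CD31, CD45, CD117 or CD140a. D0 mice had no induction, and the intact mice of the other groups received DOX from postnatal day 21 for 1, 2 or 6 weeks (W1, W2, W6). For W12, the methods describe neonatal skin grafted onto immunocompromised female hosts of 6 to 8 weeks of age, healing for 21 days and then DOX for 12 weeks. Graft and time cannot be told apart at W12, and the W12 libraries also carried 1 W2 replicate, told apart by barcode. The cultured EpdSCs were of genotype K14rtTA; TRE-myc-Sox9varients and carried wild-type SOX9 (WT), SOX9 without the DNA-binding HMG domain (ΔHMG) or SOX9 without the transactivation domain (ΔTA), from lentivirus and under puromycin selection. They were compared after DOX with WT cells without DOX. H3K4me1 and H3K27ac were measured in 26 of the 38 samples, and the other 12, of total H3, were not used here. The assay was MINT-ChIP, a barcoded chromatin immunoprecipitation for small numbers of cells cut with micrococcal nuclease. Each list pooled all replicates and digests of its group, so there was 1 list per condition, no spread between replicates and no test between conditions.

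KLF proteins are zinc-finger transcription factors that bind GC-rich DNA and the CACCC box, as do the related SP factors. KLF4, KLF5, KLF6 and KLF7 are known mainly as activators, KLF3 represses through the CtBP co-repressor, and KLF9, KLF10 and KLF13 bind the SIN3A co-repressor. In the epidermis KLF4 is known for barrier formation in the differentiating layers, KLF5 for the proliferating basal layer and KLF9 for its response to glucocorticoids and the circadian clock. H3K27ac marks active promoters and enhancers, and H3K4me1 marks enhancers both active and primed.

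The H3K27ac lists differed in depth, with a background pileup between 0.299 reads at W1 and 0.6765 reads at W6, read from the steps of the fold values. Fold, the enrichment of a peak's summit over background, therefore cannot be set side by side between lists without a reference. The median ratio to D0 over all D0 peaks still called later was 0.770, 0.921, 1.04 and 0.744 in the W1, W2, W6 and W12 lists. For start-site peaks, over all genes with one in both lists, it was 0.578, 0.724, 0.959 and 0.532. Among markers of the sorted cells, Krt5, Krt14, Trp63, Itga6 and Itgb4 had an H3K27ac peak within 1000 bp of a start site in all 5 lists. Ptprc, Pdgfra, Kit and Cd34 had none in any list, Pecam1 had one at W6 and W12 and Lhx2 at W2 only, while Sox9 had one in all 5 lists. The part of other cells in the results was not tested.

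The windows shown first in sequence are those on which the later descriptions turn. They are from the upstream Klf9 peak that was strongest at D0, and from 4 W2 peaks without an overlapping D0 peak. Each of these 4 was overlapped by a peak at W6 and by a peak at W12, which need not be the same peak. Each window is 300 bases centred on the peak summit, on the plus strand of GRCm38 (RefSeq). Capitals mark, on either strand, TGANTCA (known from AP1 sites), ACAAT or ACAAAG (both from SOX sites), CACCC (from KLF sites), TGTGGT (from RUNX sites) and AGATAA (from GATA sites).
Klf9, strongest at D0 (chr19:23134268-23134567): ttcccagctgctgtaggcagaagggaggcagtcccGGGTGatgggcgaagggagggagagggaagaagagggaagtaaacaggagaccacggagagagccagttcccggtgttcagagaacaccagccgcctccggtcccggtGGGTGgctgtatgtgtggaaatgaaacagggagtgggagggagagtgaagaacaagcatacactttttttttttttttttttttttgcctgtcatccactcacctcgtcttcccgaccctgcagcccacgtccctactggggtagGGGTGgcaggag
Klf3, absent at D0 (chr5:64809586-64809885): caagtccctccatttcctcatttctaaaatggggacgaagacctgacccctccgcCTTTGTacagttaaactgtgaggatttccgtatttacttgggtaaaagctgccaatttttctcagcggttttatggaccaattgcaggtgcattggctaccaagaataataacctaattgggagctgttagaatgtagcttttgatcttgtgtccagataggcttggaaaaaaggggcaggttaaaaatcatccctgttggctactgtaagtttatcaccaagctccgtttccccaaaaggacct
Klf4, absent at D0 (chr4:55499784-55500083): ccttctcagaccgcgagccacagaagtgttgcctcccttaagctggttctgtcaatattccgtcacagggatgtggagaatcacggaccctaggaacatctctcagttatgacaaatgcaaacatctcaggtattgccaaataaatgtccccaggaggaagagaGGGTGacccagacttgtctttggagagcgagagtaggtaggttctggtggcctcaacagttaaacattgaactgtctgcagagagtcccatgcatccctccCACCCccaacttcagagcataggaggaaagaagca
Klf6, absent at D0 (chr13:5892581-5892880): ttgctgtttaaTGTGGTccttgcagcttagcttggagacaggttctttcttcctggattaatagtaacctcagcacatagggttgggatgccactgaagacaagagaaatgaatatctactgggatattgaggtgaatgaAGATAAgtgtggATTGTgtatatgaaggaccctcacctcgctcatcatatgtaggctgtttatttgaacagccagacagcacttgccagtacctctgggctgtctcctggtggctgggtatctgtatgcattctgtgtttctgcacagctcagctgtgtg
Klf13, absent at D0 (chr7:63856931-63857230): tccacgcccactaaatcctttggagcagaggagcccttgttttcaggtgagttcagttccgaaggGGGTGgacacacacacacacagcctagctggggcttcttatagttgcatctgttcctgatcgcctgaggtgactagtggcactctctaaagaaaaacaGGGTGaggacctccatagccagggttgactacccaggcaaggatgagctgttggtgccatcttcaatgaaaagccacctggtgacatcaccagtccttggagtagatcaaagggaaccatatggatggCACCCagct
CACCC stood 3 times in the Klf9 window, 3 times in the Klf13 window and 2 times in the Klf4 window. The Klf3 window held ACAAAG once, and the Klf6 window held 1 ACAAT, 1 TGTGGT and 1 AGATAA.

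The KLF windows held more H3K27ac than the median gene in every list, except Klf7 at D0. The median share of a window covered by H3K27ac peaks was 7.57%, 8.07%, 7.79%, 9.69% and 5.98% over the 8 members in D0, W1, W2, W6 and W12, against 1.42%, 1.41%, 1.53%, 1.64% and 1.09% over all genes. Klf6 or Klf13 had the highest share in each list and Klf7 the lowest. At D0 the Klf6 window was covered by 10.8%, more than 97.0% of genes, and the Klf7 window by 1.17%, more than 45.6% of genes.

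**Figure D1:**
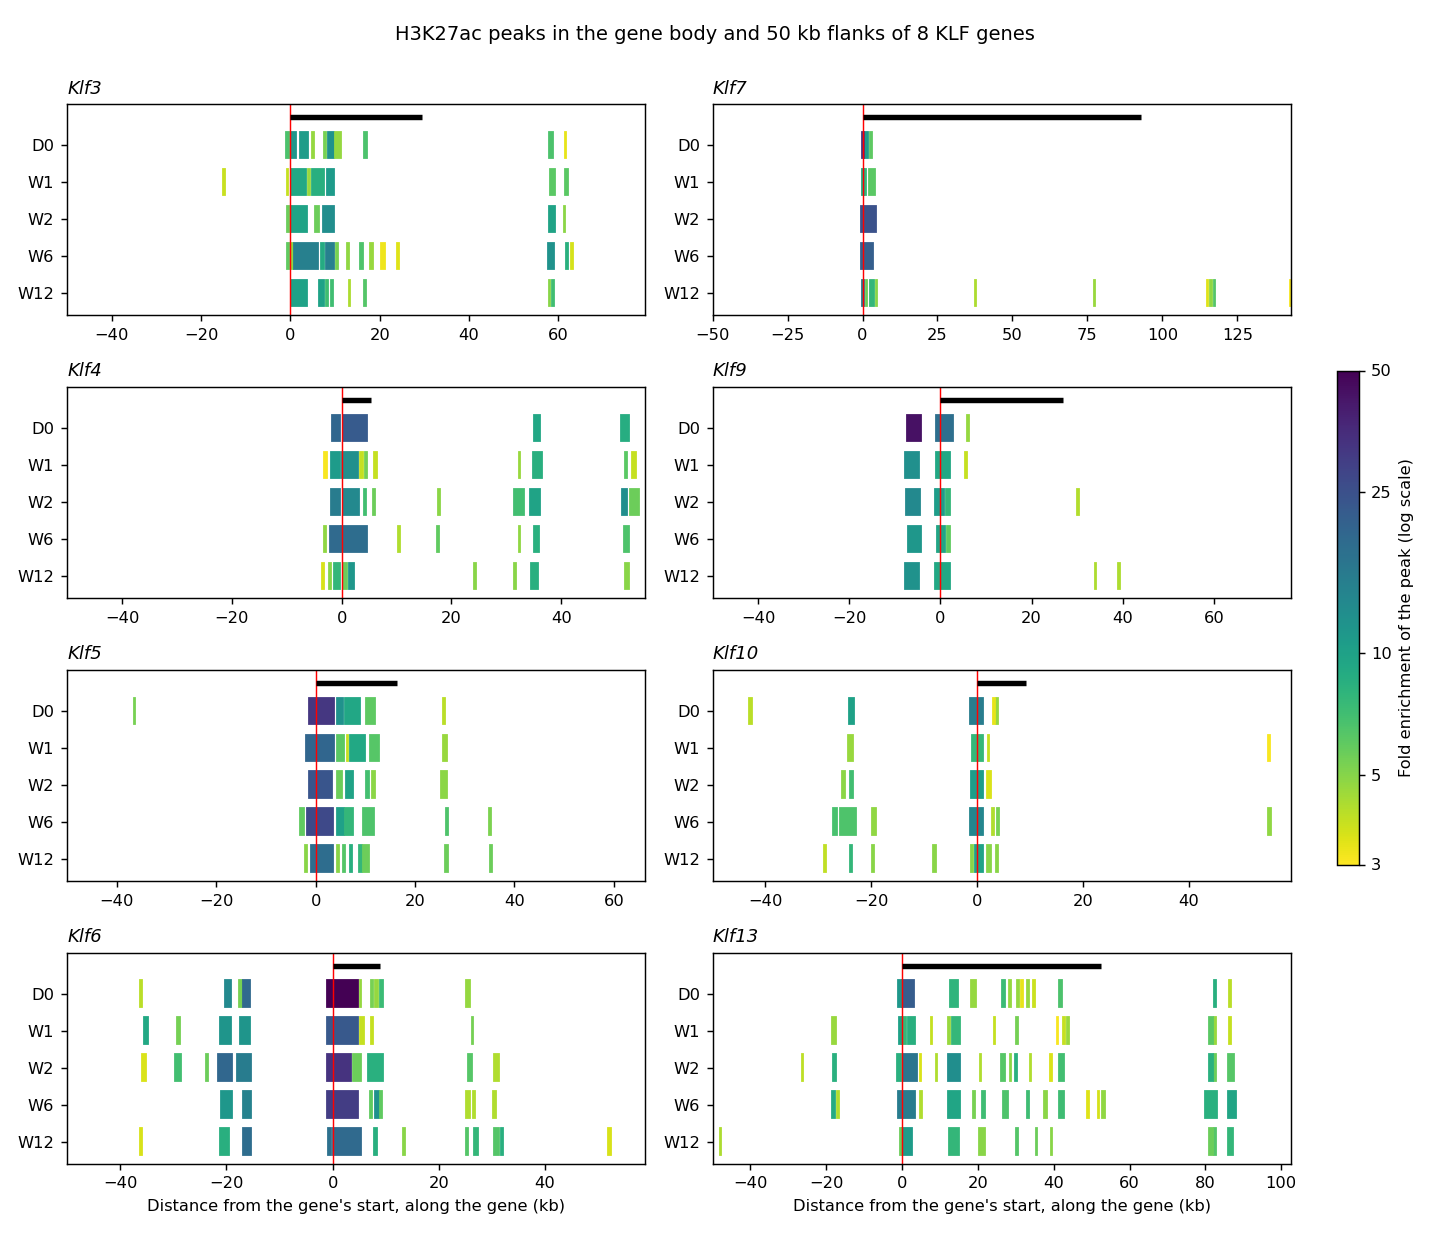
H3K27ac peaks in each KLF window in the 5 skin lists (rows), by distance in kb from the gene start (red line; black bar, gene body), coloured by fold on a log scale; narrow peaks are drawn slightly widened. The upstream Klf9 peak has fold 44.0 at D0 and between 11.3 and 13.3 later, and the Klf7 window holds 10 peaks at W12 against 3 at D0.

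Klf4, the activator tied to epidermal differentiation, had acetylation on both sides of its start site. At D0 the peak over the gene body (chr4:55527845-55532303, fold 22.7) ended 163 bp from the start site and an upstream peak of fold 19.99 began 309 bp from it. The start site was also left free at W1, W2 and W12, whereas at W6 a peak of 4754 bp and fold 18.5 lay over it. The 250 bases before the start site, from the RefSeq promoter table, overlap that gap and are shown with CACCC in capitals on either strand, of which they hold 0.
Klf4, before the start (chr4:55532476-55532725, minus strand): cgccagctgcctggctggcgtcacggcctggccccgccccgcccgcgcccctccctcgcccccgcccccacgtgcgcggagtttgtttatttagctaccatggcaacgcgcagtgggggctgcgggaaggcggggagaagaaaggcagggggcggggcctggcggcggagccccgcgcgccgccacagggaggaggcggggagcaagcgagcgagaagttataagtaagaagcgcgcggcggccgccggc
All 4 D0 peaks of Klf4 had a counterpart in each later list, and each later list held 4 peaks absent at D0. One of these, at chr4:55499236-55501087 and 31379 bp from the start, had fold 7.02 at W2. Separate parts of it were overlapped by a peak at W6 (chr4:55499936-55500239) and a peak at W12 (chr4:55500671-55501097). The W12 peak lay outside the bases shown in sequence. The Klf4 window was covered by 7.995%, 8.98%, 11.5%, 9.14% and 5.92% in D0, W1, W2, W6 and W12.

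Klf5, the activator of proliferating basal cells, kept a wide peak over its start site in all lists. At D0 it spanned chr14:99297449-99302476 (5028 bp), and its later widths were 5583, 4530, 5089 and 4412 bp. Its fold was 32.0, 20.02, 23.9, 26.8 and 18.4 in D0, W1, W2, W6 and W12. By score it stood within the first 2.25% of the D0 list and within the first 1.30% of each later list. Cover of the Klf5 window by H3K27ac was 9.78%, 11.2%, 8.22%, 10.2% and 7.42%, all within 1.5-fold of D0. The only D0 peak in no later list was a weak one of 268 bp and fold 5.33, 36316 bp from the start (chr14:99262108-99262375).

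Klf6, an activator induced early after stimulation of many cell types, had the highest fold of the family at D0. Its start-site peak (chr13:5860413-5866290) had fold 49.98 at D0, 23.1 at W1, 33.0 at W2 and 30.4 at W6. At W12 it was called as separate peaks of fold 17.7 and 19.1, which lay 226 and 86 bp from the start site. In each list the strongest Klf6 peak was within the first 0.715% by score. The Klf6 window had 11.8, 12.8, 18.3, 12.6 and 13.4 kb under H3K27ac peaks, and the value at W2 was 1.56-fold that of D0. A peak at chr13:5891894-5892759, 30412 bp from the start, was absent at D0, called at W2 with fold 4.21 and overlapped by a peak at W6 and at W12. The W6 peak (chr13:5891728-5892285) lay outside the bases shown in sequence. Both were weak by score, at 81.8% of the W2 list and 87.3% of the W6 list.

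Klf7, an activator known from neurons, had few peaks besides those at the 5′ end of the gene. At D0 there were 3, the strongest (chr1:64121819-64122587, fold 32.0) lying 328 bp from the nearest coding start site and the others at fold 10.7 and 5.998. At W1 the 3 stayed separate, and the strongest had fold 9.24, a ratio to D0 of 0.289. The 3 were called as 1 peak of 5012 bp and fold 24.6 at W2 and of 4051 bp and fold 21.5 at W6. At W12 the list gave 10 peaks, and the 7 without a D0 counterpart had folds from 3.11 to 6.38. Covered bases were 2.25, 2.86, 5.01, 4.05 and 5.57 kb, so W2, W6 and W12 stood 2.22-fold, 1.80-fold and 2.47-fold above D0. The W2 peak, chr1:64117776-64122787, reached beyond the D0 peaks on both sides as well as over the gaps between them.

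Klf3, the CtBP-binding repressor, had a cluster of peaks in the first part of the gene. Its strongest D0 peak (chr5:64811773-64813091, fold 11.995) lay over the second of its annotated start sites, and a peak lay there at W1, W2 and W6 with fold 10.8, 12.6 and 14.9 but not at W12, where peaks of fold 7.08 lay on either side. The Klf3 window held 14 peaks at W6 against 10 at D0, and its covered bases were then 1.59-fold those of D0, a call lost when divided by the covered bases of the list or with peaks above the median score. The intronic peak at chr5:64808897-64809906, fold 5.61 at W2, had no D0 counterpart, although other D0 peaks of the cluster lay close by. The peaks that overlapped it at W6 and W12 themselves had D0 counterparts.

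Among the SIN3A-binding members, Klf9 had the lowest ratio to D0 of the 8 strongest D0 peaks at each time. Its upstream peak (chr19:23133932-23136963, 3032 bp, ending 4263 bp before the start site) had fold 44.0 at D0, within the first 0.710% of the list. It was called in every later list at fold 12.3, 13.3, 11.3 and 12.04, ranking within the first 5.88%, 9.58%, 21.5% and 5.15%. The ratio to D0 was 0.280, 0.303, 0.258 and 0.274 at W1, W2, W6 and W12. A peak picked as strongest at D0 tends to be lower elsewhere, so the D0 peaks of the first 1% by score serve as reference, and their median ratio was 0.409, 0.509, 0.569 and 0.339. A lower ratio than that of the Klf9 peak was found for 25 of 298, 10 of 300, 0 of 302 and 73 of 294 of these. At W1 the strongest Klf7 peak stood close to it, with a ratio of 0.289 and 29 of 298 lower. That Klf7 peak ranked at 2.39% of the D0 list, outside the first 1%, so this reference was not matched to it. The start-site peak of Klf9 had fold 18.0, 9.24, 10.5, 9.54 and 9.21. Its ratios to D0 were 0.514, 0.585, 0.530 and 0.512, beside 0.578, 0.724, 0.959 and 0.532 as the median over start-site peaks of all genes.

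Klf10, induced by TGF-β, and Klf13 both kept a peak over an annotated start site in every list. That of Klf10 had fold 15.3, 7.70, 10.5, 13.7 and 9.92, and that of Klf13 had fold 22.0, 8.47, 16.8, 15.5 and 10.6. The Klf13 peak covered the outermost start site (chr7:63938915) at W6 only, and in the other lists lay over an internal one. Ratios to D0 at W1, W2, W6 and W12 were 0.502, 0.687, 0.895 and 0.647 for Klf10 and 0.385, 0.766, 0.705 and 0.483 for Klf13. Covered bases at W6 were 1.75-fold those of D0 for Klf10 and 1.77-fold for Klf13. The Klf13 window also holds the coding gene E030018B13Rik, whose start site was the nearest for most of the window's D0 and W6 peaks. Cover of this window therefore cannot be assigned to Klf13 alone. The gained peak of the window at chr7:63856880-63857919 (fold 8.42 at W2) has the E030018B13Rik start site as the nearest, at 58938 bp. A D0 peak of fold 8.52 (chr7:63856050-63856685) lay next to it. The W6 peak that overlapped the gained peak measured 3315 bp and also covered this D0 peak. The D0 peaks of these genes in no later list were weak, with fold 3.998 at Klf10 (chr15:38343331-38343757) and 3.76 for the stronger of 2 at Klf13 (chr7:63903848-63904335).

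**Figure D2:**
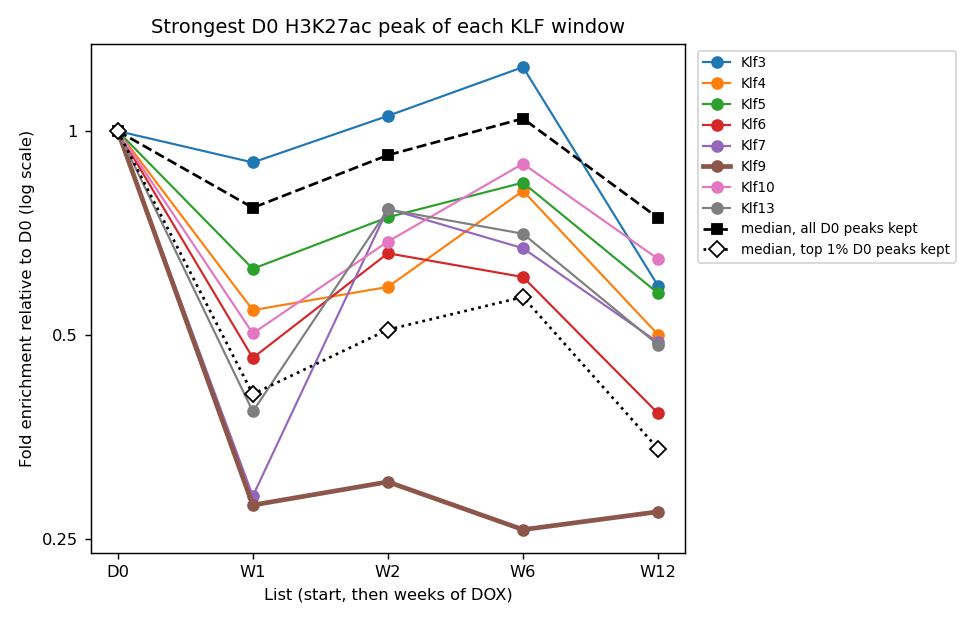
Fold relative to D0 of the strongest D0 H3K27ac peak of each KLF gene at each time, with the medians of all D0 peaks still called and of the first 1% by score. The Klf9 peak lies at 0.280, 0.303, 0.258 and 0.274, below both medians at each time. Of the KLF peaks drawn, only those of Klf6 and Klf9 belong to that first 1%.

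Over all 8 members, no window was past 1.5-fold lower in H3K27ac-covered bases at any time as deposited, where 19.8%, 17.4%, 13.8% and 45.2% of all genes with a D0 peak were at W1, W2, W6 and W12. Past 1.5-fold higher stood 0 members at W1, 2 at W2 (Klf6, Klf7), 4 at W6 (Klf3, Klf7, Klf10, Klf13) and 1 at W12 (Klf7), where the background was 15.6%, 20.9%, 25.3% and 10.6%. The background genes were not matched to the members for cover, of which the D0 median was 7.57% for the members and 1.42% for all genes. A window with little cover passes a fold limit more easily, so these counts do not set the members apart. The members' calls moved with the settings, for which the share of all genes was not computed. Klf4 was past 1.5-fold lower at W12 with 10 kb flanks and with peaks above the median score, Klf10 at W1 and Klf5 at W2 with peaks above the median score, and Klf9 at W6 when divided by the covered bases of the list. Of the higher calls, Klf7 at W2, W6 and W12 held in each of these 3 settings, whereas Klf3, Klf6, Klf10 and Klf13 each lost theirs in at least 1. The median ratio of the members was 1.11, 1.22, 1.37 and 0.978, against 0.972, 1.04, 1.14 and 0.712 over all genes. A peak lay within 1000 bp of a start site in all 8 members in every list, as it did for 44.5%, 43.1%, 44.0%, 48.3% and 36.2% of all genes.

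**Figure D3:**
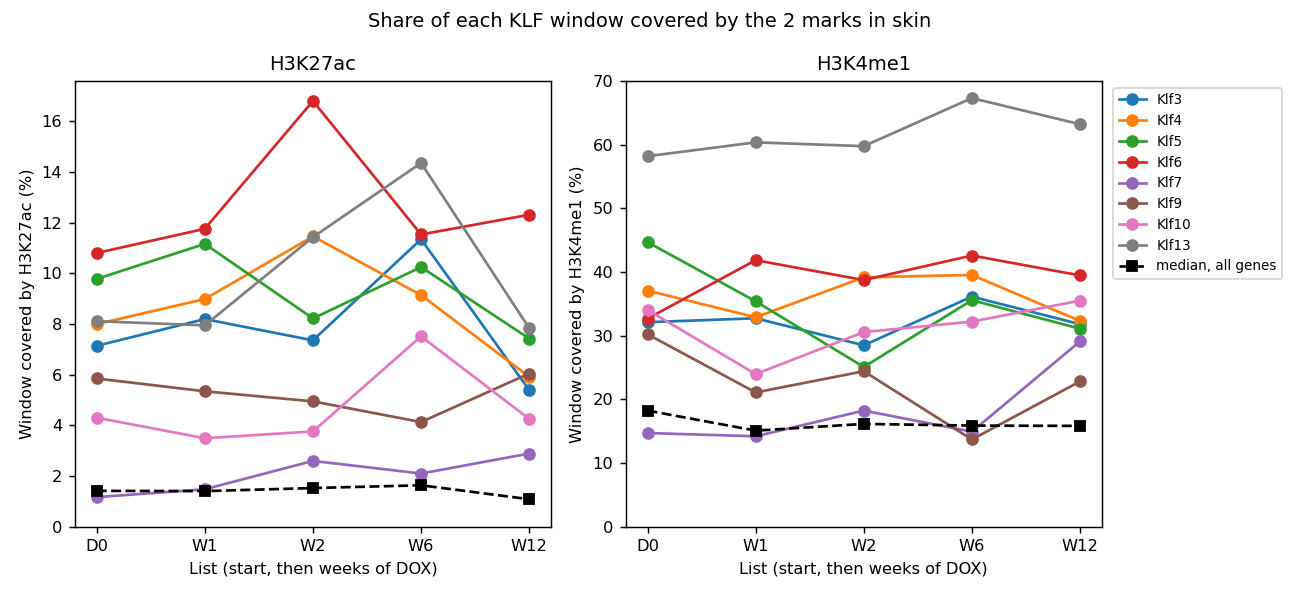
Percent of each KLF window covered by H3K27ac peaks and by H3K4me1 domains in the 5 skin lists. Klf7 lies lowest for H3K27ac at each time, and Klf13 highest for H3K4me1, between 58.2% and 67.3%.

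H3K4me1 covered more of the windows than H3K27ac. The members' median was 33.4%, 32.8%, 29.5%, 35.9% and 32.1% in D0, W1, W2, W6 and W12, against 18.3%, 15.1%, 16.2%, 15.9% and 15.8% over all genes. The D0 list was the largest of the 5, with 87287 domains over 310 Mb. Median ratios of covered bases to D0 over all genes were 0.839, 0.886, 0.877 and 0.858 at W1, W2, W6 and W12. Over the members they were 0.926, 0.962, 1.04 and 1.02. Klf13 was covered by 58.2%, 60.4%, 59.8%, 67.3% and 63.2%, with a domain of 44800 bp over the gene at D0. Klf5 was covered by 44.7% at D0 and by 35.4%, 25.1%, 35.6% and 31.1% later, and of its 16 D0 domains 5, 9, 6 and 6 had no counterpart at W1, W2, W6 and W12 while 0 were gained. Of the whole D0 list, 27.8%, 32.4%, 26.6% and 31.2% had no counterpart. Of the whole later lists, 5.96%, 20.0%, 17.1% and 15.6% were gained. Klf9 was covered by 30.2% at D0 and by 21.1%, 24.4%, 13.7% and 22.8% later, and the domain around its upstream H3K27ac peak measured 11200 bp at D0 and 6600, 4600, 5600 and 8400 bp later. A domain inside the Klf9 gene measured 13.2 kb at D0 and W1, 13.4 kb at W2 and 12.8 kb at W12. At W6 the widest domain of the Klf9 window measured 5.6 kb. Klf7 stood higher at W12, with 29.1% against 14.7% at D0.

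The other members stayed within 1.5-fold of D0 in H3K4me1 as deposited. Klf6 was covered by 32.7% at D0 and by 41.9%, 38.7%, 42.6% and 39.5% later, higher than D0 in each later list. Klf3 was covered by 32.1%, 32.7%, 28.5%, 36.1% and 31.8%, and Klf4 by 37.1%, 32.9%, 39.2%, 39.6% and 32.3%. Klf10 was covered by 34.1% at D0, 24.0% at W1 and between 30.6% and 35.5% in the other lists. The long domain over Klf13 was called as pieces of 18000 and 29400 bp at W1, as 44600 bp at W2, as 44800 bp at W6 and as 55800 bp at W12.

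Past 1.5-fold lower in H3K4me1 were 0, 1 (Klf5), 1 (Klf9) and 0 members at W1, W2, W6 and W12, with a background of 18.2%, 19.9%, 19.0% and 20.1% of genes. Past 1.5-fold higher were 0, 0, 0 and 1 (Klf7), with a background of 2.20%, 8.02%, 6.13% and 6.29%. The background genes were again not matched to the members for D0 cover. The Klf5 ratio at W2 was 0.562, the Klf9 ratio at W6 was 0.453 and the Klf7 ratio at W12 was 1.98.

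Peaks and domains were next matched between lists, and an interval is called lost when the later list has none overlapping it and gained when D0 has none. Of the 54 D0 H3K27ac peaks in KLF windows, 31.5%, 22.2%, 22.2% and 35.2% were lost at W1, W2, W6 and W12, and the same shares over the whole list were 37.4%, 38.6%, 37.8% and 53.7%. The exact 95% intervals cover counting error only and treat the 54 peaks as independent. The peaks cluster in the members' windows, and each time reuses the same D0 peaks. The intervals ran from 12.04% to 35.6% at W2 and at W6, from 22.7% to 49.4% at W12 and from 19.5% to 45.6% at W1. The share of the whole list lay outside them at W2, W6 and W12 and inside at W1, which is not a test. Gained peaks made up 29.8%, 33.3%, 40.0% and 43.7%, beside 41.3%, 40.1%, 39.8% and 56.2%. In every list stood 28 of the 54 D0 peaks (51.9%; whole list 34.3%), among them 4 of 4 at Klf4 and 3 of 3 at Klf7. At D0 only stood 4 of 54 (7.41%; whole list 20.0%).

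For H3K4me1, 23.0%, 27.6%, 18.4% and 18.4% of the 87 D0 domains were lost, beside 27.8%, 32.4%, 26.6% and 31.2% of the whole list. Gained domains were 0 of 72 at W1, which allows a share of up to 4.99%, then 7.46%, 13.5% and 11.7%, beside 5.96%, 20.0%, 17.1% and 15.6%. Domains in every list were 54 of 87 (62.1%; whole list 53.3%), and domains of D0 alone 9 of 87 (10.3%; whole list 13.7%), of which Klf5 held 4.

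**Figure D4:**
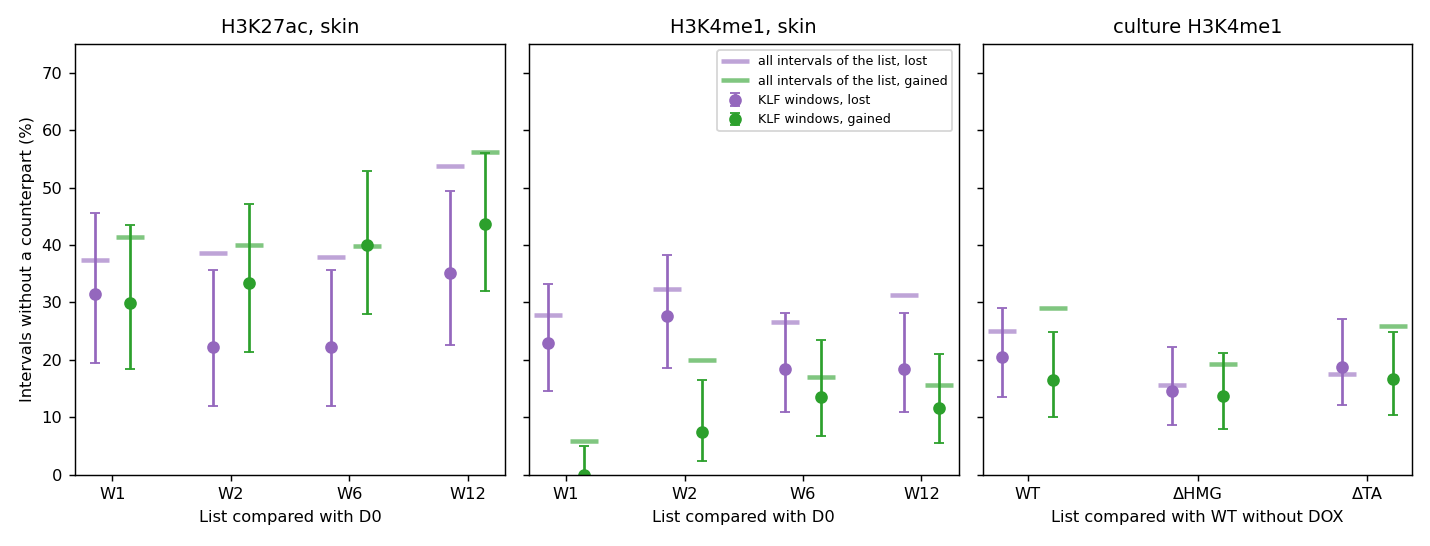
Percent of intervals in KLF windows lost or gained in each comparison, with exact 95% intervals for counting error (bars) and the share over the whole list (dashes). For H3K27ac lost at W12 the KLF value is 35.2% and that of the whole list 53.7%.

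The marks lay together. Of the H3K27ac peaks in KLF windows, 98.1%, 89.5%, 96.5%, 96.9% and 87.3% lay in an H3K4me1 domain of the same time, beside 95.9%, 94.1%, 96.3%, 97.4% and 73.9% of all peaks. Of the H3K4me1 domains, 34.5%, 44.4%, 46.3%, 40.5% and 40.3% held an H3K27ac peak, beside 22.8%, 29.6%, 27.4%, 25.9% and 24.4% of all domains. Of the 19 peaks gained at W2, 18 lay in a domain already present at D0 (94.7%; all gained peaks 89.3%). The gained peaks of Klf3, Klf4, Klf6 and Klf13 shown in sequence lay in H3K4me1 domains in all 5 lists.

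In culture no KLF window was past 1.5-fold of the cells without DOX in H3K4me1 with any SOX9 variant, as deposited. The share of all gene windows past 1.5-fold in culture was not computed, either as deposited or under the alternatives. This count therefore does not set the members apart. With 10 kb flanks Klf4 was lower with WT, and Klf4 and Klf10 with ΔHMG, and Klf9 was lower with ΔTA when divided by the covered bases of the list. With domains above the median score, Klf9 was lower and Klf5 higher with WT, Klf4 and Klf5 higher with ΔHMG, and Klf3 lower and Klf4 higher with ΔTA. The members' median cover was 12.7% in WT cells without DOX, 11.7% with WT, 11.2% with ΔHMG and 11.2% with ΔTA, against 7.52%, 8.27%, 7.83% and 8.40% over all genes. The 3 comparisons share the list without DOX as reference, and the members' ratios to it ran from 0.723 to 1.23. Klf9 was covered by 13.8%, 10.5%, 11.3% and 10.01%, with ratios of 0.756, 0.814 and 0.723 for WT, ΔHMG and ΔTA. Of the 87 D0 skin domains in KLF windows, 67 overlapped a culture domain without DOX (77.0%; whole list 63.1%). Klf13 was covered by 18.9%, 23.3%, 18.9% and 17.8%, the highest of the members with each variant.

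Of the 117 domains in KLF windows without DOX, 20.5% were lost with WT, 14.5% with ΔHMG and 18.8% with ΔTA, beside 25.1%, 15.6% and 17.5% of the whole list. Gained domains were 16.5%, 13.7% and 16.7%, beside 29.1%, 19.3% and 25.8%. In all 4 lists stood 82 of 117 (70.1%; whole list 64.2%), including 11 of 11 at Klf9, and in the reference alone 8 of 117 (6.84%; whole list 6.13%).

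**Figure D5:**
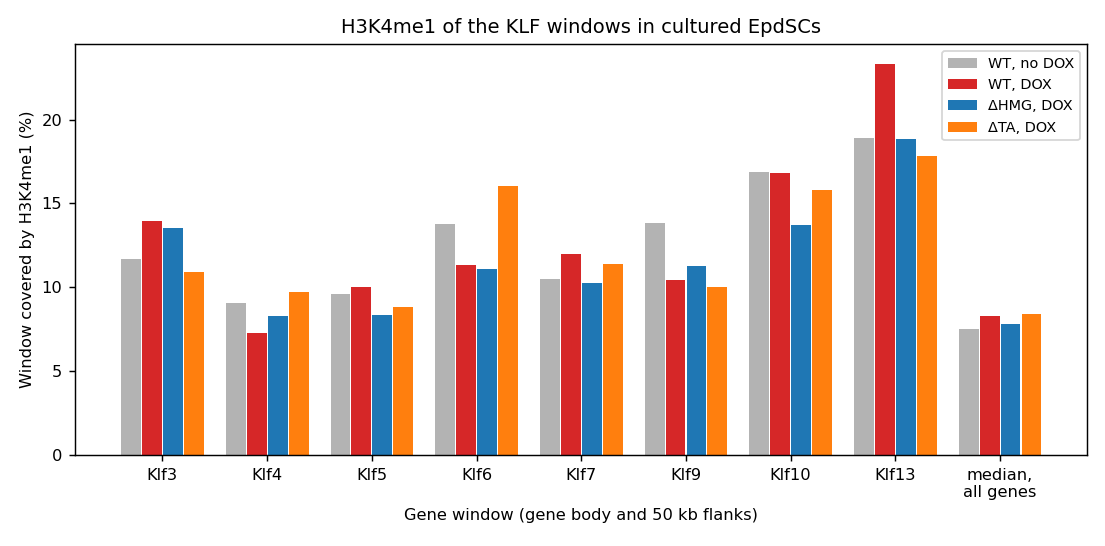
Percent of each KLF window covered by culture H3K4me1 domains, for WT without DOX and for WT, ΔHMG and ΔTA with DOX; 1 pooled list each, so there are no error bars. Klf13 stands highest in each list, at 23.3% with WT.

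The other 18 KLF and SP genes had less acetylation, with a median cover of 1.36%, 1.66%, 2.46%, 1.95% and 1.48% in D0, W1, W2, W6 and W12. Of the 15 with a D0 peak, 0, 2, 5 and 2 were past 1.5-fold higher and 2, 4, 3 and 5 past 1.5-fold lower at W1, W2, W6 and W12. By Euclidean distance over 10 cover percentages, 5 for each mark, the genes most like the members were Surf1 for Klf3, Sirt3 for Klf4, Ehmt2 for Klf5, Dlgap5 for Klf6, Lpcat1 for Klf7, Nufip2 for Klf9, Gfy for Klf10 and Tk1 for Klf13. The distance was smallest for Klf10 (4.52 percentage points) and largest for Klf6 (11.2).

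CACCC, the KLF box, stood on either strand in 59.3%, 56.1%, 70.2%, 56.9% and 56.3% of the 300-bp summit windows of KLF peaks in D0, W1, W2, W6 and W12, and in 57.9%, 55.6%, 55.6%, 57.5% and 52.5% of those of all peaks. ACAAT stood in 31.5%, 38.6%, 31.6%, 29.2% and 43.7%, beside 28.7%, 31.8%, 31.9%, 28.4% and 34.1%. ACAAAG stood in 29.6%, 19.3%, 17.5%, 24.6% and 26.8%, beside 20.7%, 22.6%, 21.9%, 20.9% and 22.9%, so above all peaks in 3 lists and below in 2. TGANTCA stood in 5.56%, 10.5%, 7.02%, 3.08% and 8.45%, beside 8.92%, 9.10%, 9.34%, 8.45% and 9.25%, above all peaks at W1 only. TGTGGT stood in between 16.9% and 22.2% of the KLF windows and AGATAA in between 7.02% and 11.1%, beside ranges of 18.0% to 19.7% and 10.7% to 13.0%. In the RefSeq promoter table, which holds 6 of the 8 members, CACCC stood in 4 of 6 and in 57.5% of all promoters.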

How the data were processed

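Of 38 samples, 26 profile H3K4me1 or H3K27ac and 12 total H3, which was not used here. Each deposited list pools the replicates and the digests of a group. Per the paper's methods and the submitters' processing notes, the authors trimmed reads with Skewer, aligned them with Bowtie2 2.2.9 to mm10, removed duplicates with Picard, merged replicates and digests with SAMtools 1.9 and called H3K27ac peaks with MACS2 2.1.1 and skin H3K4me1 domains with epic2; the caller of the culture domains is not given in the sources used here. The deposited lists give a fold enrichment (ratio), a score and a −log10 p for MACS2-format lists and a p-value for the epic2 domains, which lie on a grid of 200 bp. The fold was read from the authors' columns. Ranks were made from the score, except for skin H3K4me1, which has no score and was ranked by p-value and then width. For skin H3K4me1, a limit at the median score therefore means a limit at the middle of that ranking. No read counts or coverage were used, so depth is known only through the steps of the deposited fold ratio.

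Windows (gene body, 50 kb flanks) were built from GENCODE M21 genes on GRCm38. Covered bases, ratios past 1.5-fold, lost and gained intervals (overlap of 1 bp), start-site peaks (over the site or within 1000 bp) and sequence motifs in 300-bp windows were computed with Python 3.11.15, pandas 2.3.3, SciPy 1.17.1 and pysam 0.24.0, and checked on simulated intervals. Shares carry exact Clopper-Pearson 95% intervals for counting error. No test between conditions was made. The members and lists were chosen with earlier results of these data known. Named peaks are, per member, the D0 peak of highest fold and the D0 peak of highest fold in no later list. Also named is the W2 peak of highest fold with no overlapping D0 peak but an overlapping peak at W6 and at W12. Alternatives were the flank, the overlap, score and rank limits, joining of intervals, nearest start site, scaling by list and a 1.25-fold limit.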

Additional observations from a re-analysis of the deposited data

How the results depend on the processing

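Of 154 shares of lost or gained intervals under alternatives, 124 stayed within the exact interval of the main share, and all 33 alternative median ratios stayed within 1.5-fold. Shares in KLF windows were below the whole list in 20 of 22 as deposited and in 19 to 22 of 22 under each alternative. In what follows the share of the whole list under the same setting stands in parentheses. With both lists limited to scores above their median, H3K27ac gained was 21.2% (31.0%) at W2 and 25.8% (29.8%) at W6, H3K27ac lost 13.3% (39.6%) at W12, H3K4me1 gained 9.76% (9.29%) at W1 and 24.4% (18.2%) at W12, and culture lost 29.2% (32.9%) for WT and 29.2% (25.8%) for ΔTA. With equal numbers of top-ranked intervals, H3K4me1 lost and gained at W1 were 11.9% (17.4%) and 11.1% (12.7%), and with 10 kb flanks H3K4me1 gained at W6 was 6.25% (17.1%). With a limit in the counted list only, chosen after seeing the data and lowering shares by its construction, H3K27ac lost at W1, W2, W6 and W12 was 13.3% (14.3%), 3.33% (14.7%), 3.33% (13.6%) and 13.3% (29.9%), and gained 9.68% (18.5%), 12.1% (17.8%), 9.68% (16.5%) and 22.2% (31.7%). H3K4me1 lost was then 2.22% (4.13%), 13.3% (12.1%), 4.44% (8.36%) and 6.67% (10.4%), and gained 0% (6.40%) at W2, 0% (5.52%) at W6 and 2.22% (4.42%) at W12. Culture lost was 3.08% (9.86%), 1.54% (4.03%) and 6.15% (5.82%) for WT, ΔHMG and ΔTA, and gained 7.27% (18.9%) for WT and 0% (6.13%) for ΔHMG. In H3K4me1 of skin, the Klf5 call at W2 was lost with 10 kb flanks, Klf10 was lower at W1 with domains above the median score, and Klf6 was higher at W1 when divided by the list and at W6 above the median score. A lower limit on the fold change, given with the processing, added in H3K27ac Klf7 higher at W1, Klf4 and Klf13 higher at W2, Klf9 lower at W6 and Klf3, Klf4 and Klf5 lower at W12, in skin H3K4me1 Klf5, Klf9 and Klf10 lower and Klf6 higher at W1, Klf5 lower and Klf6 higher at W6 and Klf5 and Klf9 lower at W12, and in culture Klf9 lower with WT and ΔTA. The share of all genes called under these coverage alternatives was not computed, and the cause of these changes was not tested. No replicate could be left out, since each list pools its replicates, and interval lists do not give the read depth. No paired analysis was possible because each list pools its replicates.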
